A study of Rattus norvegicus with 16 samples.

Results

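The comparison of F1 EDC with F1 control hypothalamus used 8 of the 16 RNA sequencing libraries of the series, 4 in each group. Libraries were put into groups by their labels, not by measured values. All 8 came from female Wistar rats, an outbred laboratory strain, at 21 days of age, in tissue labelled hypothalamus (MBH-PoA). Rats of the first generation (F1) were exposed through the mother, whose food carried either vehicle or a mixture of chemicals that disrupt hormone action (EDC, endocrine disrupting chemicals). Feeding started 2 weeks before gestation and ended with lactation, so the contrast does not separate exposure before birth from exposure through milk. The other 8 libraries came from F3 rats, also labelled as female and 21 days of age, whose exposure to EDC or vehicle was ancestral. These libraries entered the fit of the dispersion. They also served as a reference for level classes, for the levels of changed genes and for the comparison of the generations. The sources used here do not give the doses and components of the mixture, the dissection or the litters. The titles of the EDC samples begin with the word Control, whereas their source and treatment fields name the EDC mixture, and every direction below rests on those fields.

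The hypothalamus sets the release of pituitary hormones and takes part in the control of feeding, growth, stress responses, puberty and maternal behaviour. Endocrine disrupting chemicals are compounds that mimic, block or alter the action of hormones, and the developing hypothalamus is known to respond to sex steroids and thyroid hormone. The title of the series places this comparison in a study of maternal behaviour and female puberty. The deposited files list genes by Ensembl rat ID without names, and 0 of the 32883 IDs matched a symbol in the gene table used. Genes are therefore described by level, size of change and agreement of replicates, and 4 are given by ID. For the same reason the labelled tissue was not checked against its marker genes, and no sequence is shown.

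Gene counts per F1 library ran from 5655354 in control replicate 4 to 35981898 in EDC replicate 4, so the shallowest and the deepest library lay in different groups. The 10 genes with most counts held 13.9% to 24.7% of the counts in controls and 15.6% to 20.4% in EDC, ranges that overlap. The overlap rests on control replicate 2, at 13.9%. Control replicates 1, 3 and 4, at 22.9% to 24.7%, lay above every EDC library. After every library was thinned to the depth of the shallowest, an EDC library held 16986 ± 128 detected genes and a control library 16473 ± 121 (SD, n = 4). A two-sided exact permutation test gave p = 0.0286, which is the lower limit for 4 against 4, and 0.0857 after adjustment over 9 measures. Of the uniquely mapped reads, 39.0% to 43.5% fell outside genes in EDC and 29.9% to 37.8% in control (two-sided exact permutation p = 0.0286, adjusted 0.0857, n = 4). This last measure was chosen after the values were seen. Unmapped reads made up 3.96% to 4.45% of reads in EDC and 5.29% to 9.45% in control (two-sided exact permutation p = 0.0286, adjusted 0.0857, n = 4). Multimapping reads made up 41.8% to 51.6% in EDC and 19.9% to 43.2% in control. No library measure passed an adjusted p of 0.05. Detected genes, unmapped reads and the share of uniquely mapped reads outside genes nevertheless separated the groups fully. They stood at the lower limit of the permutation p, and missed the threshold after adjustment because the other measures did not reach that limit. The libraries of the groups are therefore not taken as alike in quality. The part of the unmapped reads in the results was not tested. All 8 F1 files carry the same lane number, and the labels give no batch of extraction or library preparation, so handling and exposure cannot be told apart.

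The exposed rats differed from controls at levels from 1 CPM to the most abundant genes, and in the full counts the share of genes that passed the test rose with level. Levels are in CPM, a gene's counts relative to the counts of its library, with TMM factors, and a gene's class is its mean log2 CPM over the 8 F1 libraries. Over all 15366 genes tested, 52.4% were called at an adjusted p of 0.05 by edgeR's quasi-likelihood test, 25.4% as higher and 27.0% as lower in EDC. Among genes under 1 CPM, 325 of 1417 were called (22.9%), and 738 of 2282 (32.3%) at 1 to 4 CPM. The count was 1749 of 3583 (48.8%) at 4 to 16 CPM and 3047 of 5043 (60.4%) at 16 to 64 CPM. It reached 1851 of 2595 (71.3%) at 64 to 256 CPM and 347 of 446 (77.8%) at 256 CPM or more. Those 446 most abundant genes held 44.4% of all F1 gene counts after scaling.

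The sizes of the changes did not rise in that way. The median absolute log2 fold change over all tested genes was 0.92 under 1 CPM, 0.45 at 4 to 16 CPM and 0.36 in both classes from 16 to 256 CPM. It was 0.46 at 256 CPM or more, above the classes just below it. The median standard error fell over the same classes, from 0.73 under 1 CPM to 0.19 at 4 to 16 CPM and 0.07 at 256 CPM or more. The smallest changes that were called shrank with it. The 10th percentile of the absolute log2 fold change among called genes was 1.67 under 1 CPM, 0.48 at 4 to 16 CPM and 0.25 at 256 CPM or more. None of the 325 called genes under 1 CPM had an estimated change below 1.5-fold, whereas 1537 of the 3047 called genes at 16 to 64 CPM (50.4%) did.

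**Figure D1:**
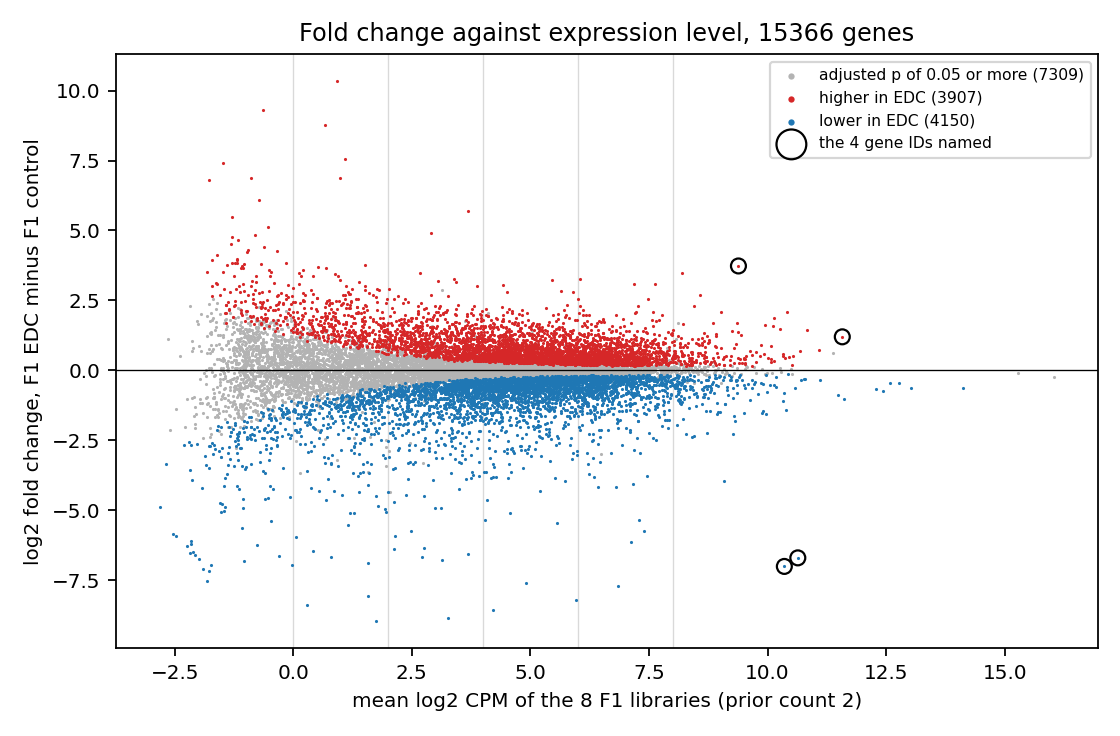
Each point is 1 of 15366 genes, with its mean log2 CPM over the 8 F1 libraries on the x axis and its log2 fold change, F1 EDC minus F1 control, on the y axis; vertical lines bound the level classes. Called genes (red higher, blue lower) come closer to a change of 0 at high levels, and both IDs circled at the bottom right fell by more than 6 on the log2 scale.

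A test against a fixed fold gave a flatter profile. With edgeR's glmTreat, which asks whether a change exceeds a given fold, 2857 genes (18.6%) passed a fold of 1.5, 1319 higher and 1538 lower in EDC. The share was 13.2% under 1 CPM, 17.4% at 1 to 4, 20.4% at 4 to 16, 17.7% at 16 to 64, 20.5% at 64 to 256 and 26.2% at 256 CPM or more. Past a fold of 2 there were 1193 genes (7.76%), and the class shares lay between 6.84% and 10.5%. A fold of 1.2 was passed by 5728 genes (37.3%), from 19.0% in the lowest class to 53.8% in the highest. The most abundant class thus held the highest share at each of the 3 folds, and the classes between 1 and 256 CPM lay within 3.2 percentage points of one another at a fold of 1.5.

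**Figure D2:**
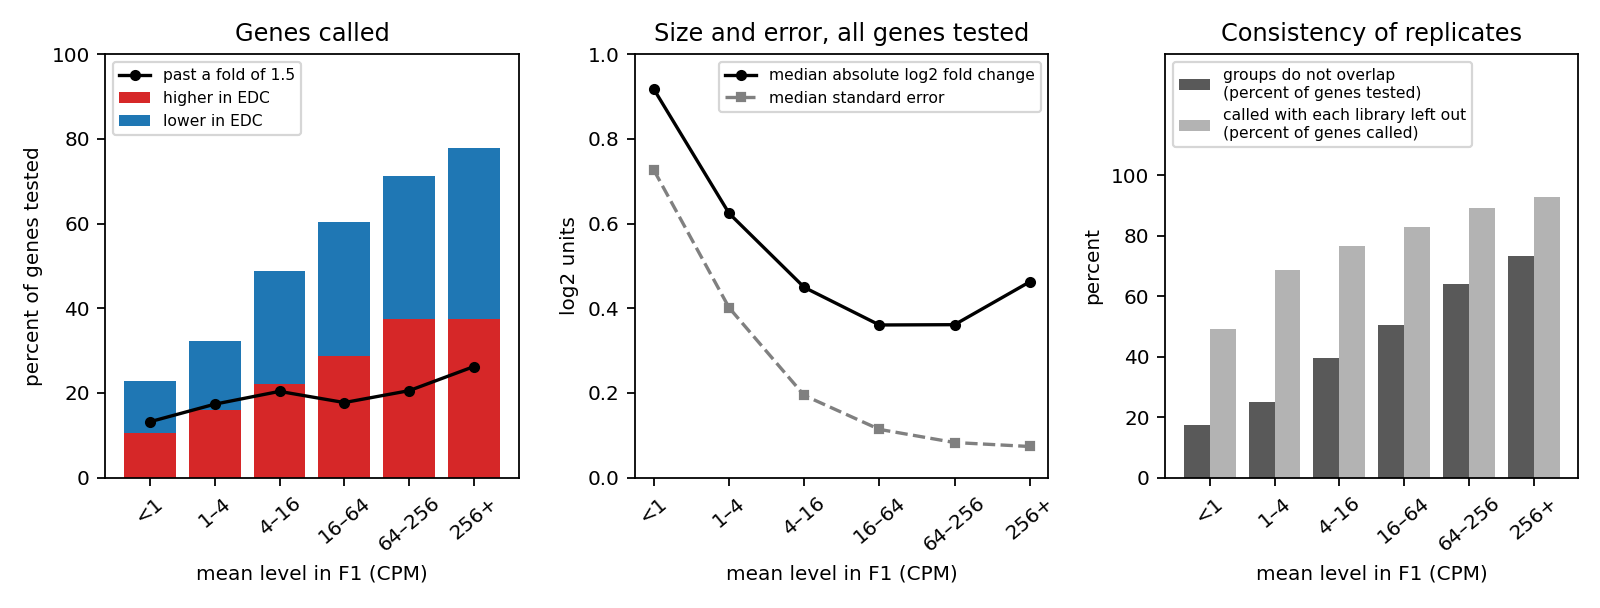
Values by class of mean F1 level in CPM: the percent of genes called (bars, red higher and blue lower in EDC) and past a fold of 1.5 (line), the median absolute log2 fold change with the median standard error, and the 2 measures of replicate consistency. Called genes rise from 22.9% to 77.8% over the classes, whereas the share past a fold of 1.5 stays between 13.2% and 26.2%.

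The lowest class needs care, because a gene can pass the filter on low counts through the group in which it is high. Of its 1417 genes, 258 passed only with the F1 EDC libraries, and 86 of these were among the 150 called higher. Another 74 passed only with the F1 controls, of which 9 were called lower. The share called in this class is therefore not read as support for an effect at low levels. With both the filter and the classes taken from the F3 libraries, an alternative chosen after seeing the data, 253 of 1104 genes under 1 CPM (22.9%) and 417 of 524 at 256 CPM or more (79.6%) were called. The gradient was thus as steep when neither step used an F1 library. Thinning every library to 5655354 gene counts left 30.2% called at 1 to 4 CPM and 77.3% at 256 CPM or more, against 32.3% and 77.8% in the full counts. Under 1 CPM thinning left only 94 genes to test, of which 41 (43.6%) were called, so the rise from the lowest class to the next did not hold there. At that depth the filter favours genes of this class that are high in 1 group, so no conclusion is drawn from this share.

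Sorted by F1 level, higher and lower genes were near balance in the classes, with 45.5% to 52.7% of the called genes higher in EDC with TMM factors and 48.3% to 56.9% with upper quartile factors. Under 1 CPM the balance was not stable: 46.2% of calls were higher there, against 29.6% with the filter on the F3 libraries, 21.95% after thinning and 63.2% with the F1 libraries fitted alone. The filters of these settings tested different genes in that class, so no direction is read from them. Over all classes 48.5% of calls were higher, a balance that turned with RLE factors (50.5%), upper quartile factors (52.6%) and DESeq2 (50.5%). The largest changes were not balanced among the more abundant genes. Among genes at 16 CPM or more, 130 were over 4-fold lower and 35 over 4-fold higher in EDC, and 345 against 228 passed the test of a fold of 2. RLE and upper quartile factors kept that order, with 127 against 39 and 123 against 46 genes past 4-fold. The balance also changed when genes were sorted by their level in F3, which the contrast does not use. With filter and classes from F3, the share of called genes that were higher fell over the classes: 58.9% under 1 CPM (149 higher, 104 lower), 57.3% at 1 to 4, 52.0% at 4 to 16, 47.2% at 16 to 64, 46.7% at 64 to 256 and 33.8% at 256 CPM or more. In that last class 276 genes were lower and 141 higher in F1 EDC, with a median log2 fold change of -0.25 over all 524, against 0.17 under 1 CPM. Without the F3-based filter the same class held 278 lower and 140 higher, 272 and 144 with RLE factors and 268 and 157 with upper quartile factors. Genes abundant in F3 were called lower in F1 EDC about as often with each scaling. Genes abundant on average in F1 were near balance (180 lower, 167 higher). Among genes past a fold of 2, both F3 groups lay nearer to F1 control than to F1 EDC in 704 of 714 lower genes. They did so in 412 of 479 higher genes. Sorting by F3 level therefore favours lower calls among abundant genes and higher calls among low ones. No conclusion is drawn from this tilt.

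Changes that carried a gene from a clear level to a low one were mostly losses. In 25 genes every F1 control lay at 16 CPM or more and every F1 EDC library under 4 CPM, and 3 genes did the reverse. The median of the group means over the 25 genes was 42.5 CPM for F1 control and 1.08 CPM for F1 EDC. The F3 medians of the same genes were 45.8 CPM for control and 43.5 CPM for EDC, and all 25 had a mean of 16 CPM or more in both F3 groups. The 3 genes of the reverse kind had a median of 1.83 CPM for F1 control and 25.4 CPM for F1 EDC, and all 3 had F3 means under 4 CPM. With bounds of 64 and 16 CPM, 20 genes were lower and 0 higher in EDC. Moved bounds of 4 and 1 CPM gave 23 and 6. For the 25 and the 3 genes the F1 EDC libraries were thus the ones that stood apart, while F1 control lay near both F3 groups. In bulk tissue, fewer cells of a type and less RNA per cell cannot be told apart. Whether the F1 EDC libraries differed in dissection, age or handling was not tested.

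The same held for most genes past a fold of 2. Among the 714 that were lower in F1 EDC, the mean log2 CPM of F3 control and that of F3 EDC were both nearer to F1 control than to F1 EDC in 704. Among the 479 that were higher, they were nearer to F1 control in 412. Of all tested genes, 271 passed the filter only with the F1 EDC libraries, and 96 of these were called higher. Such genes are low in F3 by the filter itself, which favours this count. In the classes from 4 CPM up no gene depended on the F1 EDC libraries. The counts there were 112 of 126 at 4 to 16 CPM and 115 of 132 at 16 to 64 CPM. They were 66 of 75 at 64 to 256 CPM and 20 of 21 at 256 CPM or more. The change differed between the generations, by edgeR's interaction contrast at an adjusted p of 0.05, in 708 of the 714 and 465 of the 479, against 43.6% of all genes tested. These genes were chosen for a large F1 change, which favours a difference. The F3 comparison contrasts other libraries but comes from the same fit, with the filter and the dispersions shared. It called 2.94% of genes, from 0.141% under 1 CPM to 6.86% at 64 to 256 CPM.

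Both IDs that fell the most in CPM were among the most abundant transcripts of the control hypothalamus. The named IDs were picked for the largest difference in mean CPM among called genes whose groups do not overlap. That choice favours abundance, separation and small p-values. ENSRNOG00000016516 was at 23645, 14787, 18288 and 10325 CPM in F1 control replicates 1 to 4 and at 203, 146, 157 and 135 CPM in F1 EDC replicates 1 to 4. The highest EDC value was 1.97% of the lowest control. The controls averaged 16761 ± 5629 CPM and the EDC libraries 160 ± 29.9 CPM (SD, n = 4), a ratio of means of 104. The fitted log2 fold change was -6.71, with SE 0.28 and an edgeR adjusted p of 3.64e-10. It ranked 4 by mean CPM among all genes in F1 control and 988 in F1 EDC. The F3 means, 15663 ± 2906 CPM for control and 15499 ± 779 CPM for EDC (SD, n = 4), lay within the range of the F1 controls.

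ENSRNOG00000002419 was at 22449, 12962, 15974 and 9870 CPM in F1 control replicates 1 to 4 and at 152, 109, 113 and 100.0 CPM in F1 EDC replicates 1 to 4. The log2 fold change was -7.01 (SE 0.29; edgeR adjusted p = 3.68e-10), and the means stood in a ratio of 129. Its F3 means were 12665 ± 2599 CPM for control and 13307 ± 388 CPM for EDC (SD, n = 4). Both IDs took the same order over the libraries in each F1 group: replicate 1 was highest, then 3, 2 and 4. The controls spread more than 2-fold for each ID, a spread far smaller than the gap to the EDC libraries. Together with their abundance this made the pair weigh heavily in the composition, with 8.70% and 7.95% of the summed fall in count share. Whether the tissue and age of the F1 EDC libraries are as labelled was not tested, since the IDs have no names here, and all F1 values rest on those labels.

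The IDs that rose the most in CPM changed by different folds. ENSRNOG00000017428 was at 2072, 1598, 2166 and 2292 CPM in F1 control replicates 1 to 4 and at 4867, 4606, 5111 and 4037 CPM in F1 EDC. The groups did not overlap, and the log2 fold change was 1.196 (SE 0.10; edgeR adjusted p = 1.04e-08). Its F3 levels, 3090 ± 301 CPM for control and 2781 ± 221 CPM for EDC (SD, n = 4), lay between the means of the F1 groups. ENSRNOG00000017445 was tighter, at 173, 196, 189 and 179 CPM in F1 control and at 2339, 2361, 2470 and 2596 CPM in F1 EDC. It moved from rank 786 to rank 14 by mean CPM, a ratio of means of 13.3. Its F3 level was 155 ± 6.42 CPM for control and 128 ± 10.9 CPM for EDC (SD, n = 4), a small change in the opposite direction that passed the threshold (log2 fold change -0.27, SE 0.07, edgeR adjusted p = 0.0277). All 4 IDs were called in the same direction in each of the 8 fits that left out 1 F1 library. They were picked among called genes whose groups do not overlap, which favours this agreement and their p-values.

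**Figure D3:**
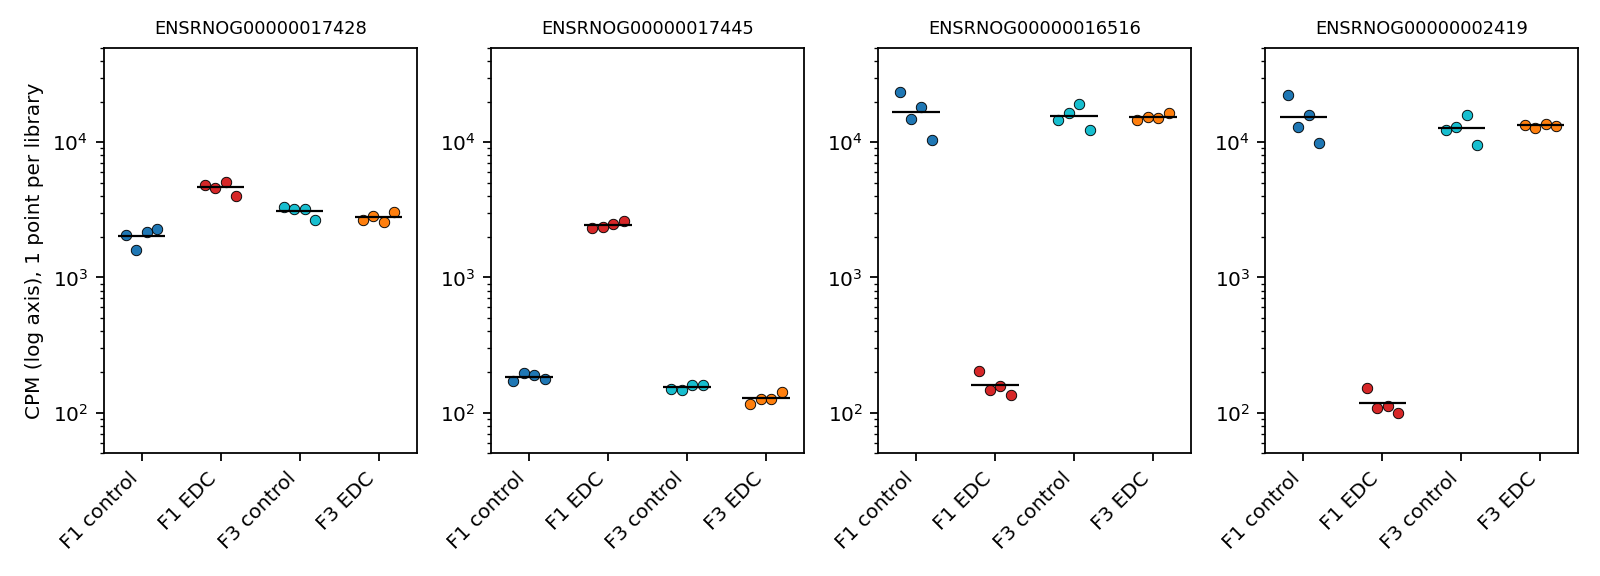
CPM of the 4 gene IDs on a log axis, 1 point per library, with the group mean as a line, for both F1 groups and both F3 groups. The F1 EDC points lie apart from the other 12 libraries for each ID, above them in the first pair of panels and below them in the last pair.

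The transfer of counts between genes was larger than any difference between replicates. Here the share of gene counts that would have to be assigned to other genes to turn one library into another was used, with no TMM factors. It was 7.06% to 13.9% for the 6 pairs of F1 controls and 4.89% to 8.91% for the 6 pairs of F1 EDC libraries. For the 16 pairs of an EDC with a control library it was 16.9% to 25.1%, with no overlap with either. The 16 such pairs in F3 gave 7.43% to 14.7%. Between the F1 group means 18.8% of counts differed. The fall was concentrated in fewer genes than the rise: 75 genes held 50% of the summed fall and 386 genes 50% of the summed rise. Of the 100 most abundant genes of F1 control, 61 were among the 100 most abundant of F1 EDC, and 731 of the top 1000 were shared.

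**Figure D4:**
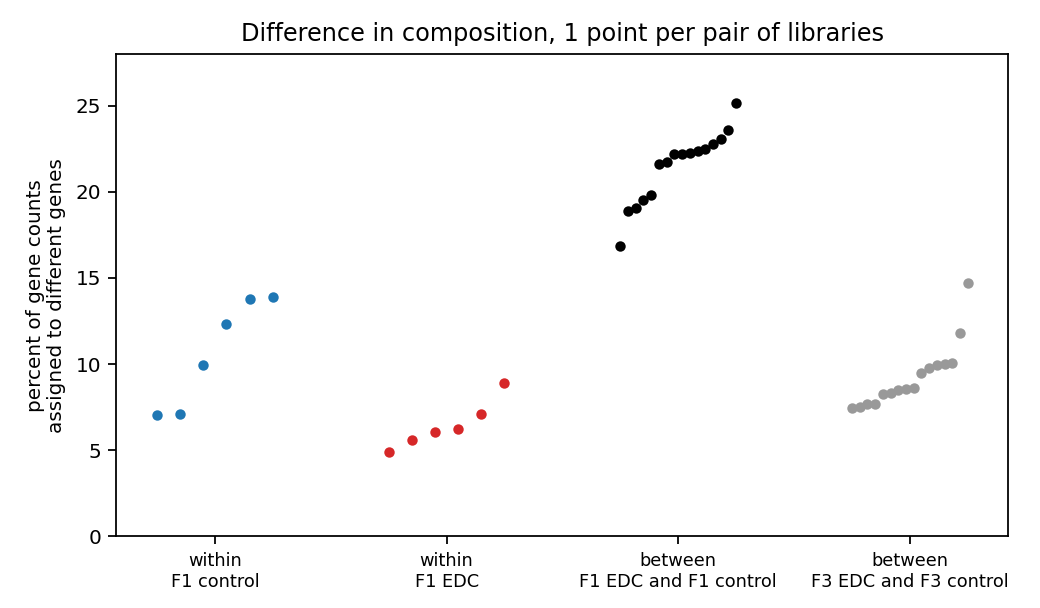
Percent of gene counts assigned to different genes, 1 point per pair of libraries, for pairs within F1 control, within F1 EDC, and between treatments in F1 and in F3. The lowest F1 pair between treatments (16.9%) lies above the highest pair within a group (13.9%).

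Replicates were consistent for most called genes, and more so at high levels. All 4 EDC libraries lay on one side of all 4 controls in 6765 genes (44.0%), from 17.5% under 1 CPM to 73.3% at 256 CPM or more. In F3 the groups did not overlap in 12.25% of the same genes. Among the 8057 called genes, 6515 (80.9%) were separated in this way, so that all 16 pairs of an EDC with a control library had the fitted direction. Of the 7309 genes not called, 250 were separated. The test favours genes that separate these same libraries, so the share among called genes is no independent support. In 924 of the 6515 called and separated genes the nearest values of the groups were still over 2-fold apart, 544 lower and 380 higher in EDC. Of the 1542 called genes whose groups overlapped, 1491 separated when 1 library was set aside. That library could be control replicate 4, the shallowest, in 547 genes, against 198 to 320 for each of the other 7. A gene can count for several libraries here. These counts were made for called genes only, and the call favours them too.

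Each library taken alone pointed the same way. Set against the mean of the other group, the 4 EDC libraries had the fitted direction in 99.8% to 99.9% of called genes and the controls in 98.0% to 99.7%, control replicate 4 being the lowest. The median change in that direction ran from 0.64 (control replicate 4) to 0.77 (control replicate 1) on the log2 scale. The calls were made with these same libraries, which favours such agreement. The median standard deviation of log2 CPM within a group was 0.23 in control and 0.19 in EDC, and lower in EDC than in control in every class. It fell from 1.05 in control and 0.73 in EDC under 1 CPM to 0.11 and 0.08 at 256 CPM or more.

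**Figure D5:**
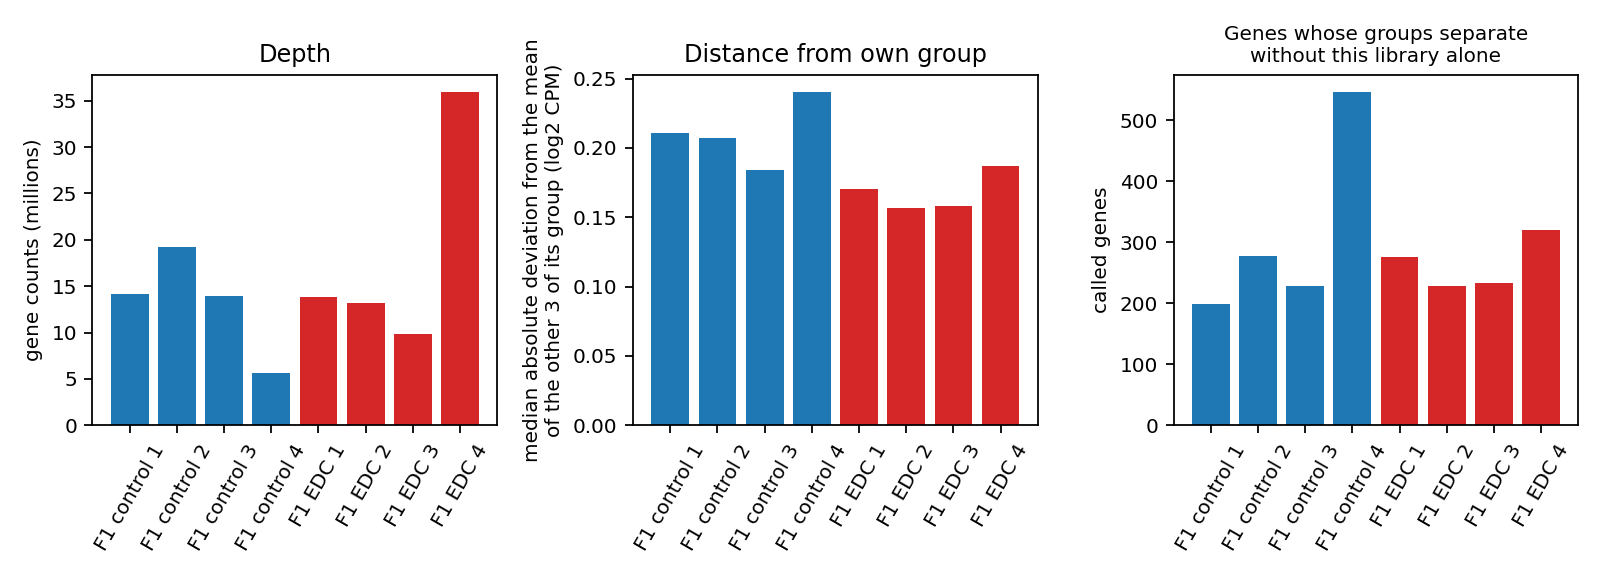
For each F1 library (blue control, red EDC): gene counts, the median absolute deviation of log2 CPM from the mean of the other 3 libraries of its group, and the number of called genes whose groups separate once that library is set aside. Control replicate 4 has the fewest counts, the largest deviation (0.24) and the most such genes (547).

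Leaving out each F1 library in turn gave 7556 to 7992 called genes. Of the 8057 genes, 6496 (80.6%) were called in the same direction in all 8 of these fits, 49.2% of those under 1 CPM and 92.8% of those at 256 CPM or more. In 473 genes fewer than 4 of the 8 fits kept the call. No called gene that was tested in all 8 fits changed direction, and 28 dropped below the filter in at least 1. The share of uniquely mapped reads outside genes, which went with treatment, was added as a covariate after seeing the data. That fit called 6267 genes, of which 5968 were among the 8057 in the same direction, 50.8% of the calls under 1 CPM and 86.7% of those at 256 CPM or more. With the share of multimapping reads as the covariate 7581 genes were called.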

How the data were processed

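RNA from the hypothalamus of 21-day-old rats was sequenced with single reads on an Illumina instrument, per the labels' protocols. Trimmomatic 0.33, TopHat2 2.1 and the build rn6 are listed in the submitters' processing notes. The deposited files hold raw read counts per gene for 32883 Ensembl IDs after 4 summary rows, in the layout of the aligner STAR, with its version and annotation not given in the sources used here. Column 4, one of the stranded columns, was used; it held at least 52.5 times the counts of the other stranded column. The summary rows stayed out of library sizes and tests, and their shares of reads were compared as library measures. No 2 libraries held identical counts.

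The 16 libraries were fitted together in edgeR 4.0.16 (R 4.3.3), with TMM factors and 1 mean for each of the 4 groups. After filterByExpr with a count minimum of 10, 15366 genes remained. Adjusted p-values are Benjamini-Hochberg over all of them, two-sided, with a threshold of 0.05, and glmTreat tested folds of 1.2, 1.5 and 2. Each standard error is the absolute log2 fold change divided by the square root of F. Level classes use log2 CPM with a prior count of 2. Library measures were compared by exact permutation. The procedures were tested on simulated data with far fewer changed genes than were called here. That test therefore does not cover changes as broad as these. P-values of the fit set the difference between groups against a spread between libraries that was estimated over all 16, F3 included. The litters are not given, so rats of a group may not be independent.

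The group, the classes and the gene lists were chosen with earlier results of these data known. The 29 gene lists, marker lists included, were left out because no symbol could be paired. The rule for naming then took 2 IDs that rose and 2 that fell, those with the largest difference in mean CPM among called genes whose groups do not overlap. Same-numbered F1 replicates did not deviate together (r from -0.0408 to 0.0884 over genes in the 4 pairs). The alternatives tried were DESeq2 1.42.0, voom from limma 3.58.1, RLE factors, upper quartile factors, other filters, F1 fitted alone, unstranded counts, thinning, a replicate block, covariates and leaving out each F1 library.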

Additional observations from a re-analysis of the deposited data

Results flagged for a closer look

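The change between EDC and control differed between the generations for each of the 4 IDs, by edgeR's interaction contrast. Subtracting the F1 from the F3 log2 fold change gave -1.35 for ENSRNOG00000017428 (edgeR adjusted p = 3.71e-07) and -4.004 for ENSRNOG00000017445 (edgeR adjusted p = 1.57e-18). The result was 6.69 for ENSRNOG00000016516 (edgeR adjusted p = 6.75e-09) and 7.09 for ENSRNOG00000002419 (edgeR adjusted p = 6.01e-09). The IDs were chosen for large F1 changes. Among the F1 controls, 1 library stood apart from the other 3 in the percent of all reads that mapped outside genes: replicate 2, at 21.8%, against 18.5% to 18.8%. It was the only such library among 26 groups of 4 values screened, where chance marks about 1 in 20.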

How the results depend on the processing

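The number of genes called (8057) lay between 6267 and 8278 over all alternatives, and 7556 to 7992 with 1 F1 library left out. The number past a fold of 1.5 (2857) lay between 2138 and 2952, and 2625 to 2952 with 1 library left out. The percent called at 256 CPM or more (77.8%) was 69.1% to 79.8%, and 74.4% to 77.6% with 1 library left out. The percent called under 1 CPM was the least stable value. From 22.9% it went to 5.90% with no filter on low counts, which tests many more such genes, to 43.6% after thinning, which left 94 of them to test, and to 13.5% with the percent of uniquely mapped reads outside genes as a covariate, where the cause was not tested. It was 16.6% to 21.3% with 1 library left out. A filter set at mean log2 CPM 1 left too few genes in that class for a value. The share of called genes that were higher (48.5%) turned over 50% with RLE factors (50.5%), upper quartile factors (52.6%) and DESeq2 (50.5%). The scalings moved the median log2 fold change of all genes by at most 0.04. With the replicate number as a block 7732 genes were called. The labels do not say whether the numbers pair the rats. All 4 named IDs kept their direction and their call under every alternative run. Their choice among called genes whose groups do not overlap favours this. Under 1 CPM the median gene had 10.9 counts per library.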

Other observations

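Genes with 0 counts in a whole F1 group were counted, with at least 3 counts asked for in every library of the other group. There were 19 such genes with 0 counts in all 4 F1 controls and 1 with 0 counts in all 4 F1 EDC libraries. The EDC libraries held 72828890 gene counts in all and the controls 53048272. With every library thinned to 5655354 gene counts, the numbers were 6 and 6. In the full counts the mean level of the 19 genes in EDC had a median of 0.451 CPM and a highest value of 4.23 CPM, and 3 of them were at 1 CPM or more.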
